A study of Mus musculus with 48 samples.

Results

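The genes described here encode 9 proteins that carry or restrain the signal of the pre-B-cell receptor: Cd79a, Cd79b, Syk, Blnk, Btk, Pik3cd, Pik3ap1, Plcg2 and Cd22. They were chosen by name from the 21025 gene models of the deposited tables, and each name matched 1 model, so that all 9 of 9 were found. Their levels were followed in 30 RNA-sequencing libraries of mouse early B-lineage cells in which the gene of the transcription factor Ikaros, Ikzf1, was deleted, knocked down or left intact. The series holds 48 samples, and its 18 chromatin immunoprecipitation samples were not analysed here.

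All mice were of the C57BL/6 strain, per the labels. Pro-B cells were Ikzf1(fl/-) Cd79a(Cre/+) for the deletion and Ikzf1(fl/+) Cd79a(Cre/+) for the control, in 3 settings of 2 libraries per genotype. These settings were pro-B cells, pro-B cells labelled c-Kit high, and pro-B cells that were also Rag2(-/-) and so could not rearrange immunoglobulin genes. Every pro-B library therefore carried a Cre allele placed in Cd79a, which is itself among the genes described, and the controls kept 1 wild-type Ikzf1 allele. Cre driven from Cd79a acts in B-lineage cells. The 2 pre-B libraries were labelled wild-type and total, and carried no Cre. The pre-pro-B cells were cultured and Ebf1(-/-), so they lacked the factor that commits cells to the B lineage. They were studied in 4 libraries for each of 4 constructs: an empty vector, the control hairpin Ren713, and hairpins Ik4056 and Ik2709 against Ikzf1. Whether replicates stem from different animals or cultures is not stated, and p-values thus reflect only the spread among these libraries, which may be technical.

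The pre-B-cell receptor is assembled from an immunoglobulin heavy chain, the surrogate light chain, and the transmembrane pair encoded by Cd79a and Cd79b, whose cytoplasmic tails are phosphorylated when the receptor signals. The kinase SYK docks on those tails and phosphorylates the adaptor BLNK, on which the kinase BTK and the phospholipase PLCG2 meet to release calcium. The PI3-kinase catalytic subunit encoded by Pik3cd is brought to the membrane by adaptors such as the product of Pik3ap1 (also called BCAP), while the sialic-acid-binding receptor CD22 recruits phosphatases that dampen the signal. In pre-B cells this pathway drives the first proliferative burst and then light-chain rearrangement.

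Ikzf1 itself was examined first. RPKM, the reads scaled to the length of the gene model and to the mapped reads of the library, was 45.3 and 48.9 for Ikzf1 in the deleted pro-B libraries against 59.2 and 56.4 in their controls, a log2 difference of -0.29 ± 0.14 (SE; adjusted p = 0.178). The value counts the whole gene model, and the labels do not say which part the deletion removes, so it is a limited check of the genotype. Ikzf1 was at 101 and 124 in c-Kit-high controls against 64.5 and 86.0 after deletion, and at 62.3 and 56.2 against 39.9 and 36.7 in Rag2-null cells. In pre-pro-B cells it was at 106 to 145 with the control constructs and at 23.7 to 60.6 with the hairpins. No deleted or hairpin library overlapped its controls, and Ikzf1 fell by 0.58 in c-Kit-high cells (adjusted p = 0.0144), by 0.62 in Rag2-null cells (adjusted p = 0.00893) and by 1.57 ± 0.17 with the hairpins in pre-pro-B cells (adjusted p = 6.54e-06). Pax5, which encodes a B-lineage transcription factor, was at 70.6 RPKM or more in all 14 pro-B and pre-B libraries and at 0.296 or less in all 16 pre-pro-B libraries. The whole multiples on which low values fall implied 17.0 M reads or more in each pre-pro-B library, 10.3 to 12.4 M in pro-B, 26.9 to 33.9 M in Rag2-null pro-B, and 2.3 M in 1 c-Kit-high control library (replicate 2). In 4 libraries, 1 c-Kit-high control, 1 c-Kit-high deleted and the 2 pre-B libraries, low values fell on no single step.

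Some libraries held RNA of other cell types. The summed RPKM of 7 granulocyte markers was 6829 and 6970 in the 2 pre-B libraries, with S100a9 at 2509 and 2569. It was 96.9 and 606.5 in the c-Kit-high controls, 116 and 285 in the deleted c-Kit-high libraries, and at most 0.73 in the pro-B and Rag2-null pro-B libraries. Each of the 7 averaged 1 RPKM or more in the pre-B and c-Kit-high groups, and none of them did in the other pro-B groups. The 6 monocyte and macrophage markers summed to 500.1 and 652 in the pre-B libraries, mostly from Lyz2 (445 and 595), and to at most 81.2 in any pro-B group. The 4 erythroid markers summed to 100.7 and 137 in the pre-B libraries, against 2.26 and 2.66 in the pro-B and 4.94 and 31.6 in the c-Kit-high controls, and all 4 were called higher in both pre-B comparisons. Every result on the pre-B libraries, and to a lesser extent on the c-Kit-high libraries, was measured in such a mixture. In bulk RNA fewer cells of a type and less RNA per cell cannot be told apart.

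Across the 11 groups the members showed 3 kinds of profile. Cd79a, Blnk and Cd22 were close to absent in pre-pro-B cells and present in every later group. Cd79b was low in pre-pro-B cells and then became the most abundant member in all 7 pro-B and pre-B groups. Syk, Btk, Pik3cd, Pik3ap1 and Plcg2 were present in all 30 libraries, and Plcg2 was the most abundant member in each of the 4 pre-pro-B groups. Since RPKM is a level per length, these orders between genes can be read directly.

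**Figure D1:**
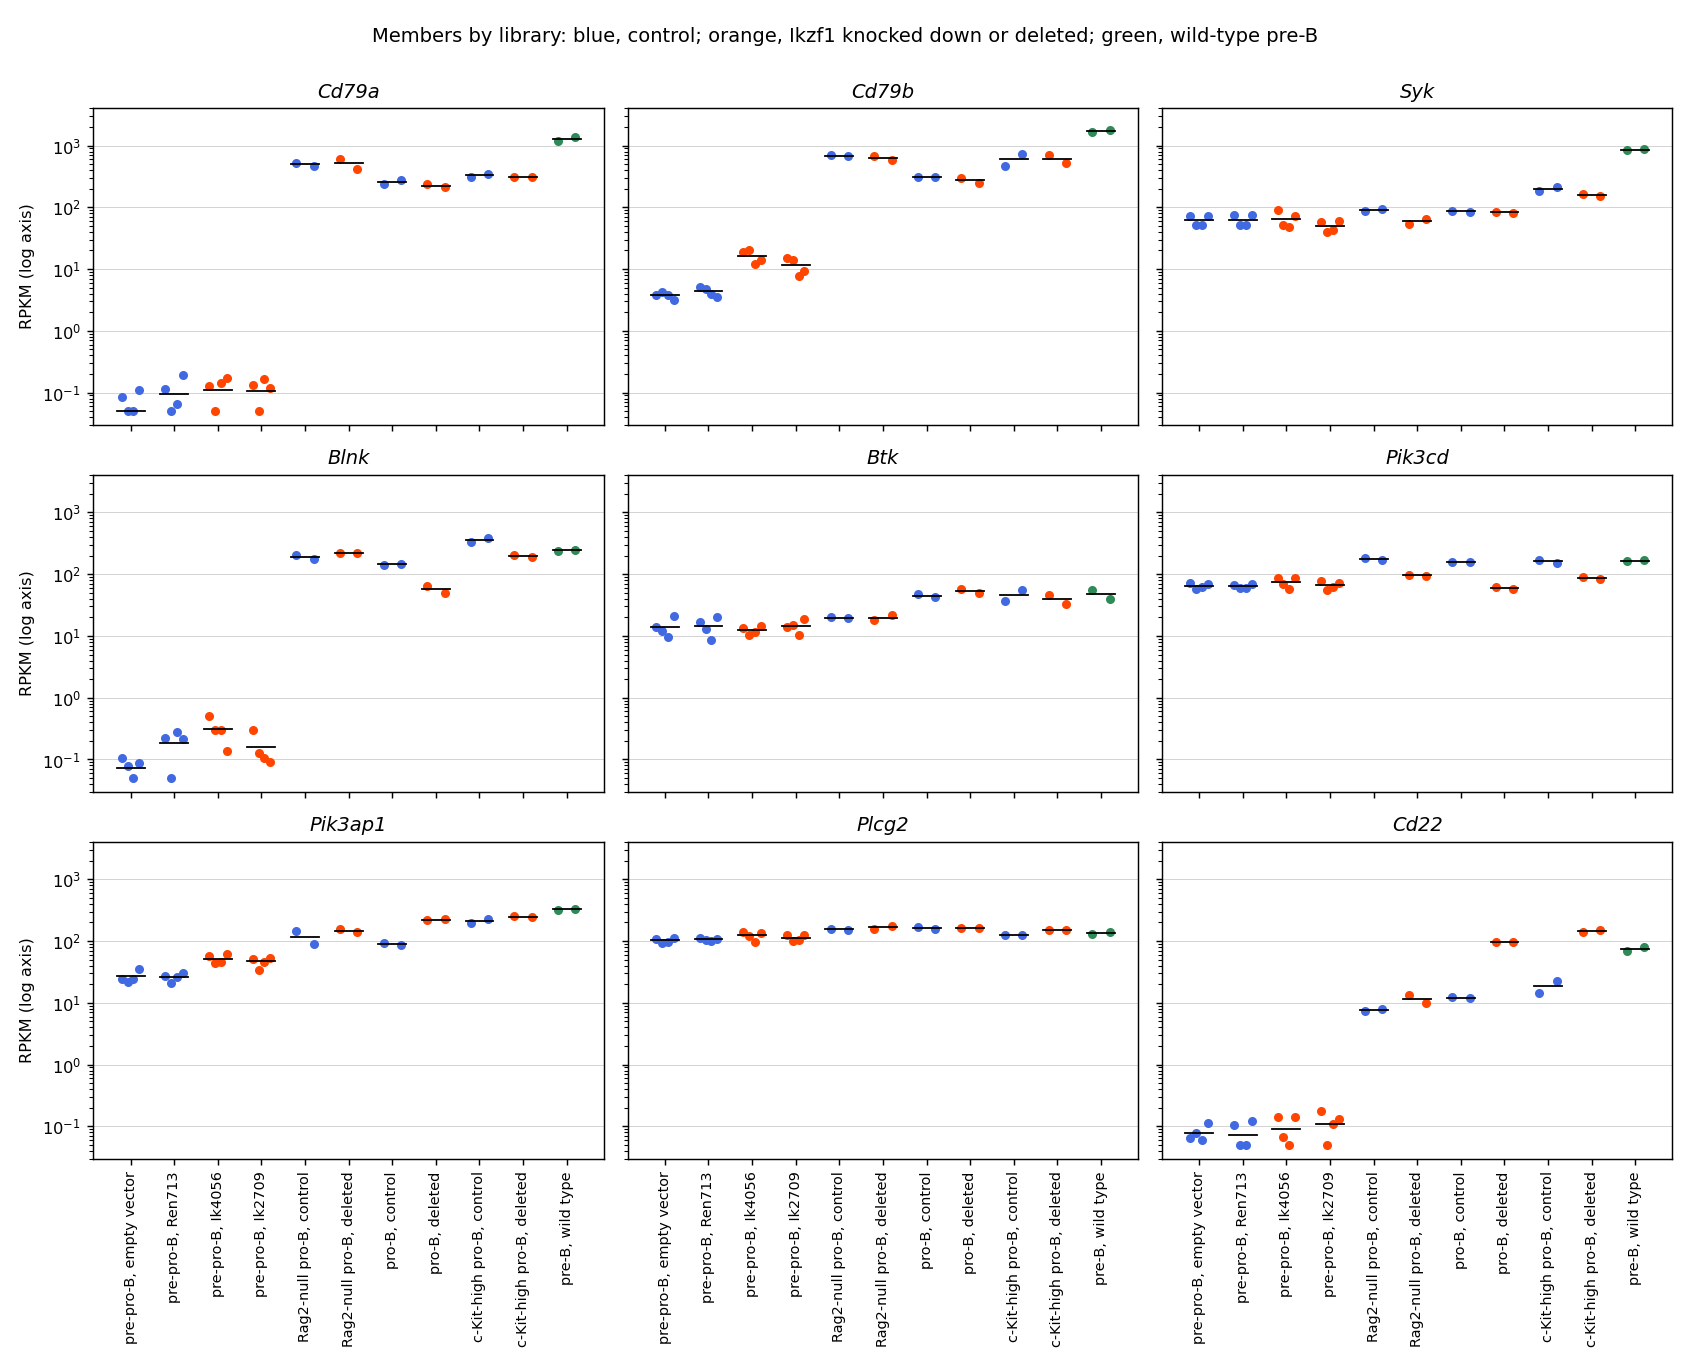
RPKM (log axis) of the 9 members in each of 30 libraries, by group; each point is a library, black bars are group means, and values under 0.05 are drawn at 0.05. Cd79a, Blnk and Cd22 sit under 1 RPKM in all pre-pro-B libraries, Cd22 and Pik3ap1 are higher in the deleted than in the control pro-B libraries, and Blnk and Pik3cd are lower.

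After deletion of Ikzf1 the adaptors Blnk and Pik3ap1, the PI3-kinase subunit Pik3cd, the kinase Syk and the inhibitory receptor Cd22 changed in 1 or more settings, while the receptor chains, Btk and Plcg2 were called in none of the 3 settings. In pro-B cells 4 of 9 members were called by limma at an adjusted p under 0.05, against 23.4% of the 11937 genes tested (13.5% higher and 9.89% lower): Cd22 and Pik3ap1 rose, and Blnk and Pik3cd fell. In c-Kit-high cells 3 of 9 were called (background 17.2%, of which 11.6% higher and 5.6% lower), with Cd22 up and Blnk and Pik3cd down. In Rag2-null cells 2 of 9 were called (background 22.3%, of which 15.5% higher and 6.84% lower), Pik3cd and Syk, each of them lower. The median log2 difference over the 9 members was -0.05 in pro-B cells, -0.08 in c-Kit-high cells and 0.02 in Rag2-null cells, beside medians over all genes of 0.03, 0.03 and 0.06.

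Markers of other stages moved with the deletion. The 3 progenitor markers Kit, Flt3 and Cd34 summed to 19.0 and 21.0 RPKM in control and to 32.0 and 36.5 in deleted pro-B libraries, to 42.2 and 44.2 against 69.1 and 80.1 in c-Kit-high cells, and to 16.9 and 25.9 against 75.3 and 89.7 in Rag2-null cells, and 2 of the 3 were called higher in each setting. Of the 10 B-lineage check genes, which include Cd79a and Cd79b, 5 fell and 2 rose in pro-B cells (median -0.37), 2 fell in c-Kit-high cells and 1 rose in Rag2-null cells. Their summed level was 3286 and 3289 in control and 2829 and 3102 in deleted pro-B libraries. The part of these markers in the results on the members was not tested.

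**Figure D2:**
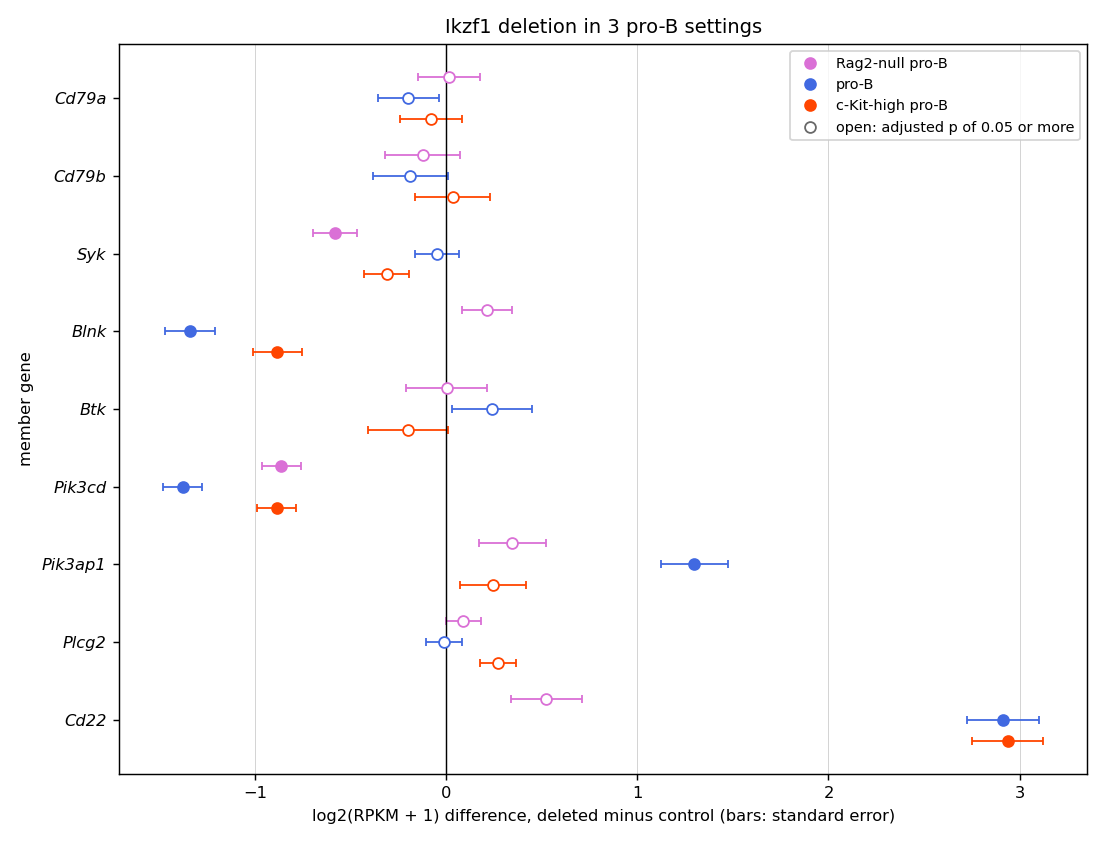
log2(RPKM + 1) difference between deleted and control libraries (x axis, bars are the standard error) for each member (y axis) in 3 pro-B settings of 2 against 2 libraries; filled points passed an adjusted p of 0.05. Pik3cd lies left of 0 in all 3 settings, Cd22 near 3 in pro-B and c-Kit-high cells, and Blnk on opposite sides of 0 in pro-B and Rag2-null cells.

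Cd22, the inhibitory receptor, was at 12.2 and 11.9 RPKM in the control pro-B libraries and at 98.0 and 96.2 in the deleted ones. In c-Kit-high cells it was at 14.4 and 23.0 in the controls and at 139 and 153 after deletion. The deleted libraries lay far above their controls in both settings, 8.07-fold and 7.83-fold higher by the group means. On the log2 scale Cd22 rose by 2.91 ± 0.19 (adjusted p = 7.47e-07) in pro-B cells and by 2.94 ± 0.19 (adjusted p = 7.46e-07) in c-Kit-high cells, and neither call was lost in any alternative tried. The Rag2-null controls had 7.51 and 7.89 RPKM, and the deleted libraries 13.4 and 9.84. These did not overlap either, but the log2 difference of 0.52 ± 0.19 was not called (adjusted p = 0.0638). It was called in a fit of all 30 libraries (adjusted p = 0.0236) and without deleted replicate 2 (0.73, adjusted p = 0.0432), and over all its alternatives the adjusted p ran from 0.0236 to 0.4. The effect in Rag2-null cells was smaller than in pro-B cells by a log2 difference of -2.39 ± 0.26 (adjusted p = 0.000138). Levels after deletion in pro-B and c-Kit-high cells exceeded those of the wild-type pre-B libraries, where Cd22 was at 69.6 and 78.9.

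Other genes of later B cells were measured beside Cd22. The list of 7 matched pre-B and later B markers, which includes Cd22, summed to 51.3 and 59.1 RPKM in the control pro-B libraries and to 606 and 647 after deletion, most of it from Cd74 (429 and 472 after deletion). Ms4a1, which encodes CD20, was at 1.59 and 1.23 in the controls and at 0.587 and 0.301 after deletion, and Il2ra was at 0.507 or less in these 4 libraries. The same list summed to 20.9 and 29.1 after deletion in Rag2-null cells. The part of these markers in the Cd22 result was not tested.

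Pik3cd, the PI3-kinase catalytic subunit, was the member called in all 3 settings. It was at 157 and 159 RPKM in the control pro-B libraries and at 62.0 and 58.2 after deletion. In c-Kit-high cells it was at 173 and 152 in the controls and at 91.4 and 83.3 after deletion, and in Rag2-null cells at 182 and 168 against 97.4 and 94.3. The deleted libraries were lower than every control library, and in pro-B cells they came down to the level of the pre-pro-B libraries (56.2 to 88.2). Pik3cd fell by 1.38 ± 0.10 on the log2 scale in pro-B cells (adjusted p = 1.73e-06), by 0.89 ± 0.10 in c-Kit-high cells (adjusted p = 7.12e-05) and by 0.86 ± 0.10 in Rag2-null cells (adjusted p = 7.63e-05). The smaller fall in Rag2-null than in pro-B cells was called as a difference of 0.52 ± 0.15 (adjusted p = 0.0347), and that call was lost in 10 of 17 alternatives (adjusted p 0.0119 to 0.201). Leaving out any of the 8 libraries but Rag2-null control replicate 1 ended it, with differences of 0.46 to 0.56.

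Blnk, the adaptor that joins SYK to BTK and PLCG2, was at 143 and 146 RPKM in the control pro-B libraries and at 64.0 and 49.9 after deletion. In c-Kit-high cells it was at 333 and 391 in the controls and at 202 and 189.6 after deletion. Both pairs were well separated, and Blnk fell by 1.34 ± 0.13 on the log2 scale in pro-B cells (adjusted p = 1.39e-05) and by 0.88 ± 0.13 in c-Kit-high cells (adjusted p = 0.000458). The Rag2-null controls had 207 and 177 and the deleted libraries 221 and 224, a difference of 0.21 ± 0.13 that was not called (adjusted p = 0.287). The effects in Rag2-null and pro-B cells differed by 1.55 ± 0.18 (adjusted p = 0.000208).

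Pik3ap1, the adaptor that links the receptor to PI3-kinase, was at 94.6 and 85.1 RPKM in the control pro-B libraries and at 216 and 227 after deletion. It rose by 1.30 ± 0.18 on the log2 scale in pro-B cells (adjusted p = 0.000174), 2.47-fold by the group means. In c-Kit-high cells the values were 193 and 224 in the controls and 251 and 242 after deletion (0.25 ± 0.18, adjusted p = 0.387), so the controls there were already near the level that pro-B cells reached after deletion. In Rag2-null cells the controls were far apart, at 146 and 90.4, against 155 and 138 after deletion (0.35 ± 0.18, adjusted p = 0.192). Without control replicate 1 that difference was 0.69 and was called (adjusted p = 0.0032), and over all its alternatives the adjusted p ran from 0.0032 to 1. The effect in c-Kit-high cells was lower than that in pro-B cells, with a difference of -1.05 ± 0.25 (adjusted p = 0.0247), and so was the effect in Rag2-null cells (-0.95 ± 0.25, adjusted p = 0.0239). These 2 tests share the pro-B libraries, and each was lost in 7 of 17 alternatives, with adjusted p of 0.00517 to 0.107 and of 0.000552 to 0.098. The first was lost without any of the 8 libraries but c-Kit-high control replicate 1 (-1.13 to -0.95), and the second without any of the 4 pro-B libraries or Rag2-null deleted replicate 2 (-1.03 to -0.87). For the difference between c-Kit-high and pro-B effects, 1 of 9 members was called (background 6.7%), and for that between Rag2-null and pro-B effects 4 of 9 (background 13.1%). Rag2-null and pro-B libraries differ in Rag2 genotype, series of library numbers and implied depth together, and these cannot be told apart.

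Syk, whose product docks on the phosphorylated CD79 tails, was at 86.9 and 92.1 RPKM in the Rag2-null controls and at 54.1 and 65.5 after deletion. It fell by 0.58 ± 0.12 on the log2 scale (adjusted p = 0.00348). The call was lost in a fit of all 30 libraries (adjusted p = 0.141) and in a fit of the compared groups alone (adjusted p = 0.0525), with adjusted p from 0.000867 to 0.141 over all its alternatives. In pro-B cells Syk was at 87.3 and 84.3 in the controls and at 85.2 and 80.8 after deletion (-0.05 ± 0.12, adjusted p = 0.832). In c-Kit-high cells it was at 184 and 214 against 167 and 154, with a difference of -0.31 ± 0.12 (adjusted p = 0.0898) that was called under quantile normalization (adjusted p = 0.0455) and median-ratio scaling (adjusted p = 0.0468). The difference between the Rag2-null and the pro-B effect was -0.53 ± 0.16 and was not called (adjusted p = 0.0524).

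The receptor chains, Btk and Plcg2 gave no call after deletion. Cd79a was at 242 and 273 RPKM in control and at 236 and 213 in deleted pro-B libraries (-0.20 ± 0.16, adjusted p = 0.435). Cd79b was at 306 and 313 against 300.5 and 246 (-0.19 ± 0.19, adjusted p = 0.558). In c-Kit-high cells Cd79a was at 307 and 348 against 310.2 and 309, and Cd79b at 465 and 726 against 691 and 512. In Rag2-null cells Cd79a was at 526 and 471 against 605 and 418, and Cd79b at 691 and 668 against 672 and 579.5. Deleted and control libraries of both chains overlapped in these 2 settings. All these libraries have the Cre allele at Cd79a, so the allele does not differ between deleted and control libraries. Btk, the Tec-family kinase, was at 47.1 and 42.1 in control and at 56.6 and 49.3 in deleted pro-B libraries (0.24 ± 0.21, adjusted p = 0.467). It was at 36.9 and 55.0 against 46.3 and 33.1 in c-Kit-high cells and at 20.0 and 19.5 against 17.9 and 21.9 in Rag2-null cells, with overlapping groups. Plcg2, the phospholipase, was at 124 to 173 RPKM across all 14 pro-B and pre-B libraries. Its largest difference after deletion was in c-Kit-high cells, from 125 and 124 to 152 and 149 (0.27 ± 0.09, adjusted p = 0.0648), which was called without a filter on low values (adjusted p = 0.0367) and under quantile normalization (adjusted p = 0.0497).

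RefSeq windows of the 250 bases before a transcription start (build GRCm38.p6) were found for 8 of the 9 members, in 11 windows, and not for Cd79b. Those of the 4 members called in pro-B cells are shown because these genes changed on deletion, Cd22 and Pik3ap1 upward and Blnk and Pik3cd downward. Capitals mark TGGGAA on either strand (reverse complement TTCCCA), which holds the GGGAA core that Ikaros binds, and the EBF1 palindrome, TCCC and GGGA separated by any 2 bases, which is its own reverse complement. No match overlapped another. For Pik3cd the 1 window of 3 with a match is shown. Each is written 5′ to 3′ on the strand of the gene.
Cd22, chr7:30879029-30879278, minus strand: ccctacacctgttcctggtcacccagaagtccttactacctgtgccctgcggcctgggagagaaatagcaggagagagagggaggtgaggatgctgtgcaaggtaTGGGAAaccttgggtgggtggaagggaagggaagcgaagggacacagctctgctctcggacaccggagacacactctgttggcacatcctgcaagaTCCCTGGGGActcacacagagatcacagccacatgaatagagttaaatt
Pik3ap1, chr19:41385103-41385352, minus strand: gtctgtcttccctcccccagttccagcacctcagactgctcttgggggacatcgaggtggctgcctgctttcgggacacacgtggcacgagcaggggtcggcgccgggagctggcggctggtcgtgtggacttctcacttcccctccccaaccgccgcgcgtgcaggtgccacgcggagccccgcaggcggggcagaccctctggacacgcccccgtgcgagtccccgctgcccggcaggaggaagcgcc
Blnk, chr19:40994222-40994471, minus strand: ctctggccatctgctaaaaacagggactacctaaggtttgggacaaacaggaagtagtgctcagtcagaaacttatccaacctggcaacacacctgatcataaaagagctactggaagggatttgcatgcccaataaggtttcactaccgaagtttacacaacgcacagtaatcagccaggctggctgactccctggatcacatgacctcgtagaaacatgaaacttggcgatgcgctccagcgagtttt
Pik3cd, chr4:149663317-149663566, minus strand: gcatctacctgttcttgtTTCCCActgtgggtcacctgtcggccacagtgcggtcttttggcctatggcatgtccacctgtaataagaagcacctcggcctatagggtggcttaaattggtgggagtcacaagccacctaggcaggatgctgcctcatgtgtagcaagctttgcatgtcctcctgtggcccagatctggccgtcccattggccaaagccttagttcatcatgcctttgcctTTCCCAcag
The Cd22 window holds TGGGAA from position -145 and the EBF1 palindrome from position -49, counted from the last base before the start as -1. The Pik3cd window holds 2 matches to TGGGAA, and the Blnk and Pik3ap1 windows hold neither motif. The shorter core GGGAA was not marked or counted. It also occurs outside the capitals in the Cd22 window and, as its reverse complement TTCCC, in the Pik3ap1 window. TGGGAA was found in 4 of the 11 member windows (Cd22, Pik3cd, Btk and Plcg2) and in 21.6% of all 32851 windows of this length, and the EBF1 palindrome in 1 of the 11 and in 0.779% of all. A match is a run of letters and no measured binding site.

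In Ebf1-null pre-pro-B cells the Ikzf1 hairpins raised Cd79b and Pik3ap1. Of the 6 members that passed the filter on low values, 2 were called in the fit without a replicate block. In that fit 19.4% of the 10744 genes tested were called (13.4% higher). With the run of consecutive library numbers as a block, Syk, Pik3cd and Plcg2 were called as well, and so were 51.9% of all genes tested. The median log2 difference of the 6 members was 0.15, beside 0.01 over all genes. Cd79a, Blnk and Cd22 did not pass the filter, and were not tested.

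Cd79b was at 3.86, 4.23, 3.76 and 3.21 RPKM with the empty vector and at 5.13, 4.75, 3.94 and 3.53 with Ren713. It was at 19.2, 20.6, 12.0 and 14.1 with Ik4056 and at 15.3, 14.1, 7.72 and 9.38 with Ik2709. Every hairpin library was above every control library, and Cd79b rose by 1.53 ± 0.14 on the log2 scale (adjusted p = 1.29e-06). The libraries of each construct come in 4 runs of consecutive library numbers. Within runs the ratio to the mean of the controls was 3.11 to 4.58 for Ik4056 and 2.00 to 3.41 for Ik2709, higher in 4 of 4 runs for each hairpin. The highest of these libraries was still far under any pro-B library, where Cd79b was at 246 or more.

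Pik3ap1 was at 24.7, 21.9, 24.6 and 35.5 RPKM with the empty vector and at 27.2, 20.9, 26.2 and 30.4 with Ren713. With Ik4056 it was at 57.1, 43.8, 45.8 and 61.5, and with Ik2709 at 51.8, 34.6, 46.5 and 53.8. The groups overlapped only through the highest empty-vector library and the lowest Ik2709 library, which belong to different runs, and Pik3ap1 rose by 0.87 ± 0.12 (adjusted p = 7.24e-05). Within runs the ratio to the controls had a median of 1.96 for Ik4056 and 1.73 for Ik2709, higher in 4 of 4 runs for each. Pik3ap1 was thus called higher in both the knock-down of Ikzf1 and its deletion in pro-B cells, in cells of different genotype.

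**Figure D3:**
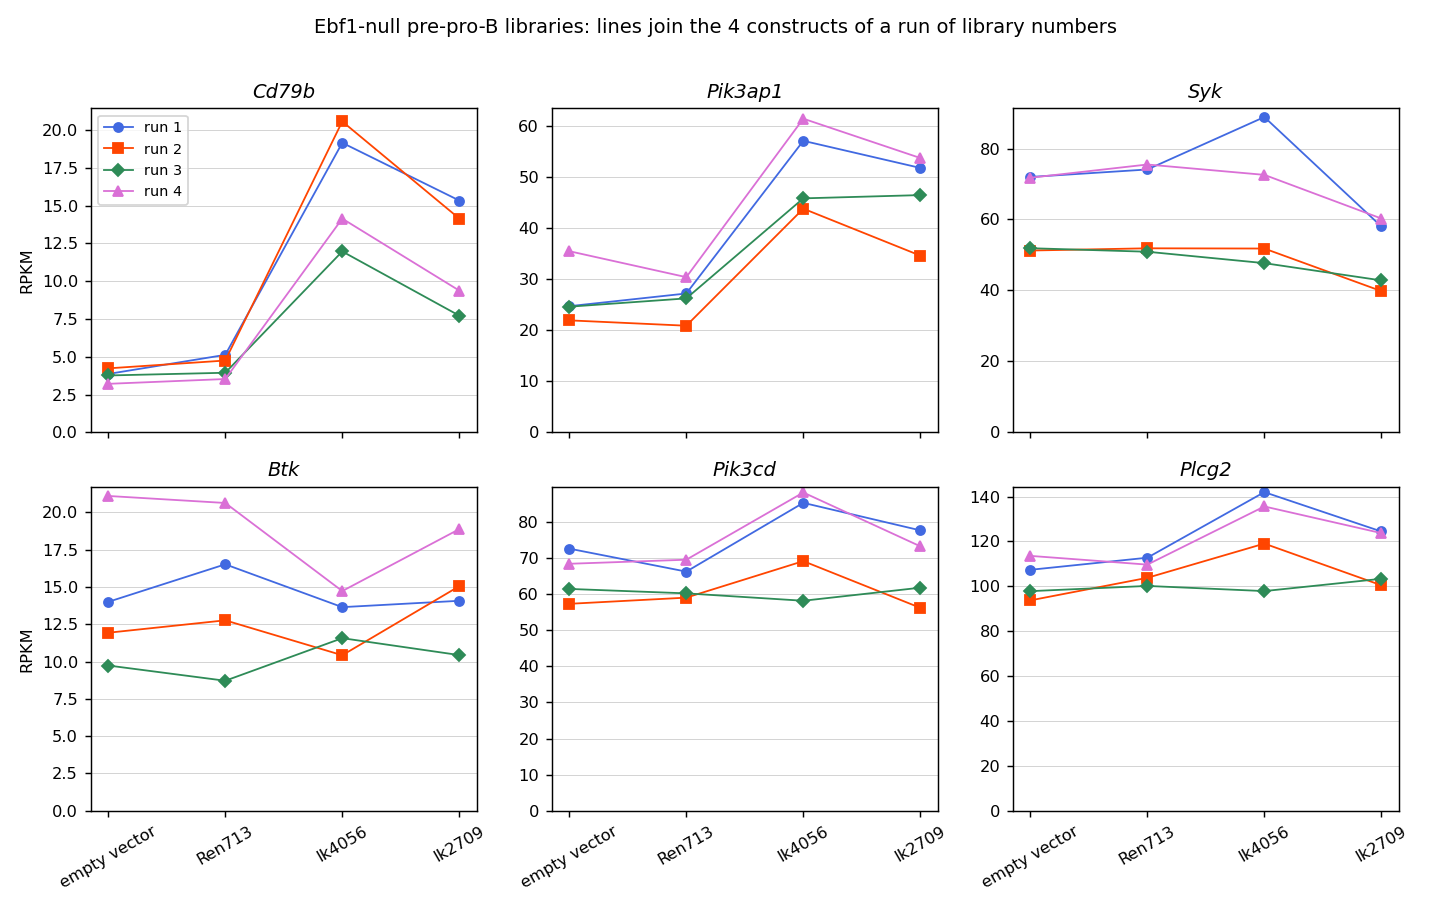
RPKM (y axis, from 0) of the 6 members above the filter in the 16 Ebf1-null pre-pro-B libraries, by construct (x axis); each line joins the 4 libraries of a run of consecutive library numbers. Cd79b and Pik3ap1 step up with each hairpin in all 4 runs, whereas Syk, Btk, Pik3cd and Plcg2 move little and the runs differ in level.

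The other 4 members were not called without a block. With the run as a replicate block 51.9% of all genes tested were called, and so were 5 of 6 members, since Syk (-0.13, adjusted p = 0.0216), Pik3cd (0.13, adjusted p = 0.0326) and Plcg2 (0.16, adjusted p = 0.00601) were added with unchanged size. Without the block these had adjusted p of 0.634, 0.423 and 0.217. Btk was between 8.71 and 21.1 RPKM in the 16 libraries and was not called in either fit. Between the hairpins themselves 0 of 6 members were called (background 3.33%), 1 of them at an unadjusted p under 0.05, and 2 with the block (background 22.4%): Cd79b was higher with Ik4056 than with Ik2709 by 0.48 (adjusted p = 0.00369) and Syk by 0.35 (adjusted p = 0.000891). Syk was lower than the run's controls in 4 of 4 runs with Ik2709, at ratios of 0.772 to 0.833, and in 2 of 4 with Ik4056. Between the control hairpin and the empty vector 0 of 6 members were called (background 0%), none of them at an unadjusted p under 0.05.

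Myeloid genes moved with the knock-down. The 6 monocyte and macrophage markers summed to 8.30 to 16.0 RPKM in the 8 control and to 64.9 to 112 in the 8 hairpin libraries. Of these 6, 4 were called higher and 1 lower. The 7 granulocyte markers summed to 21.7 to 90.3 and to 114 to 429, but only 3 of them passed the filter, and these 3 were called higher. S100a9 was at 0 in all 16. The part of these markers in the Cd79b and Pik3ap1 results was not tested.

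The 3 members under the filter were measured close to 0. Cd79a was listed at 0 in 5 of 16 pre-pro-B libraries and reached at most 0.196 RPKM, with implied reads of 0 to 8 and a total of 51. Blnk lay between 0.0136 and 0.504 RPKM (1 to 20 implied reads, 146 in all), and Cd22 between 0.0144 and 0.176 (2 to 19 implied reads, 151 in all). No change was called in these 3 genes: with no filter on low values Blnk had a log2 difference of 0.13 ± 0.06 (adjusted p = 0.204), Cd79a of 0.05 (adjusted p = 0.608) and Cd22 of 0.03 (adjusted p = 0.613).

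All 9 members were higher in control pro-B cells than in the pre-pro-B control libraries (limma over all 30 libraries, background 55.5%, of which 30.1% higher). Ebf1 genotype, culture, the Cre allele, the floxed Ikzf1 allele, the vector constructs and the series of library numbers differ between these groups. They differ together with the stage and cannot be told apart. The log2 difference was largest for Cd79a (7.91 ± 0.12), Blnk (7.02 ± 0.11), Cd79b (5.95 ± 0.21) and Cd22 (3.60 ± 0.13). For Cd79a, Blnk and Cd22, close to 0 in pre-pro-B cells, these sizes depend on the pseudocount. Over the alternatives they reached 10.66, 9.43 and 6.14, beside 6.23 for Cd79b, so the gap between Cd79b and Cd22 is not fixed. In the main fit the difference was 1.74 ± 0.18 for Pik3ap1, 1.62 ± 0.25 for Btk, 1.28 ± 0.13 for Pik3cd and 0.65 ± 0.11 for Plcg2, each with an adjusted p of 3.84e-05 or less. Syk, at 50.9 to 75.5 RPKM in the 8 control pre-pro-B libraries and at 87.3 and 84.3 in control pro-B, differed by 0.47 ± 0.20 (adjusted p = 0.0497), and this call was lost in 10 of 18 alternatives (adjusted p 0.0244 to 0.207). Leaving out either pro-B control, or replicate 2 or 3 of either pre-pro-B control group, ended it, with differences of 0.43 to 0.50.

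From control pro-B cells to wild-type pre-B cells, the receptor chains, Syk, Cd22, Pik3ap1 and Blnk rose, Plcg2 fell, and Btk and Pik3cd were not called: 7 of 9 members were called, against 68.8% of all genes. Against c-Kit-high control cells 6 of 9 were called (background 49%), 5 higher and Blnk lower. The stage comparisons share control libraries, so their values are given side by side. The pre-B cells also differ in genotype, with 2 wild-type alleles of Ikzf1 and of Cd79a. Pre-B and control pro-B libraries come from different series of library numbers, and c-Kit-high control replicate 2 lies apart from both. These differ together with the stage and cannot be told apart from it. The pre-B median of all genes moved by 0.12 against c-Kit-high cells under quantile normalization and by 0.14 under median-ratio scaling.

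Syk was at 832 and 868 RPKM in the pre-B libraries, at 87.3 and 84.3 in control pro-B and at 184 and 214 in c-Kit-high controls. The 3 groups did not overlap, and the pre-B level was 9.91-fold that of pro-B cells. The log2 difference was 3.29 ± 0.12 against pro-B (adjusted p = 6.18e-10) and 2.09 ± 0.12 against c-Kit-high cells (adjusted p = 5.83e-08). Of the 9 members, Syk had the largest log2 difference between pre-B and pro-B cells. It was also higher in c-Kit-high than in pro-B controls, by 1.20 ± 0.12 (adjusted p = 1.04e-05). The granulocyte marker sums of these libraries, given above, moved with Syk, and their part in the result was not tested.

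**Figure D4:**
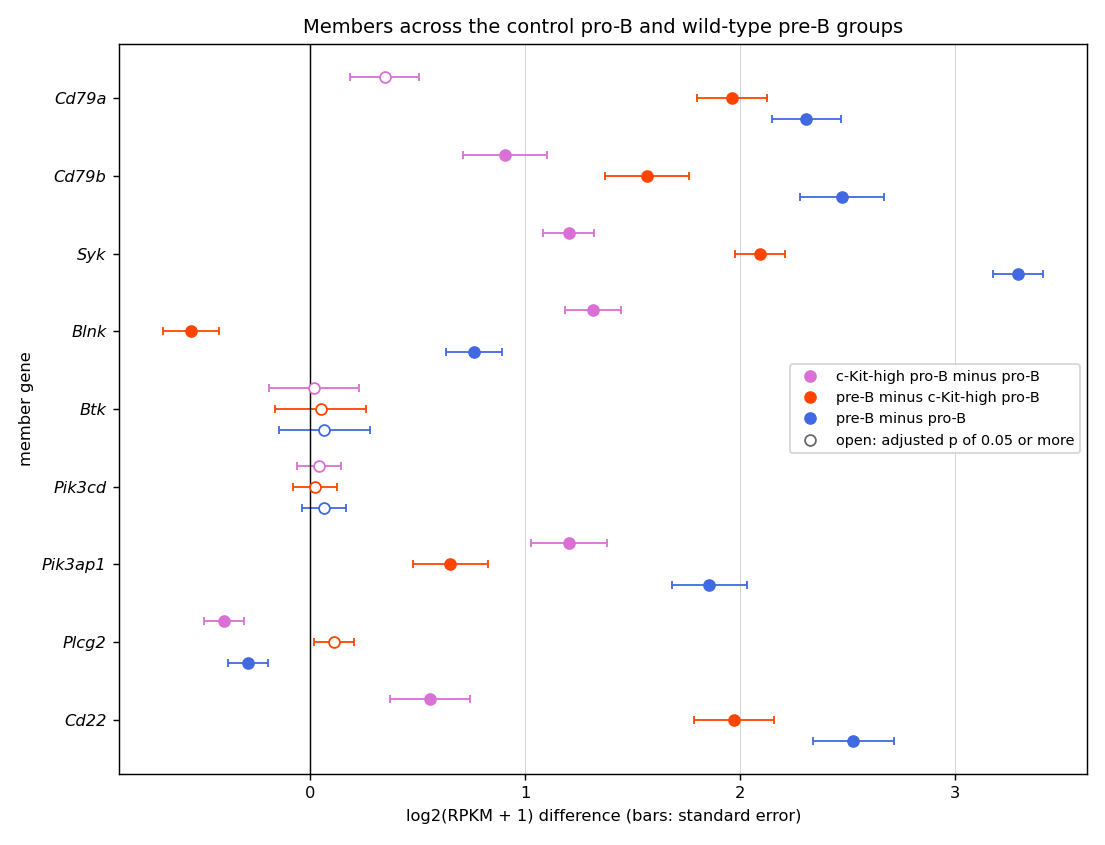
log2(RPKM + 1) difference (x axis, bars are the standard error) of each member (y axis) between 2 c-Kit-high control, 2 pro-B control and 2 wild-type pre-B libraries, which the 3 comparisons share; filled points passed an adjusted p of 0.05. Syk is farthest to the right in pre-B against pro-B cells, Blnk lies left of 0 in pre-B against c-Kit-high cells, and Btk and Pik3cd stay near 0.

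Cd79a was at 1166 and 1397 RPKM in pre-B libraries, at 242 and 273 in control pro-B and at 307 and 348 in c-Kit-high controls. Pre-B cells were higher by 2.31 ± 0.16 against pro-B (adjusted p = 1e-07) and by 1.96 ± 0.16 against c-Kit-high cells (adjusted p = 1.01e-06), but the pre-B cells carry no Cre allele at Cd79a, so stage and allele number cannot be told apart for this gene. Cd79b, whose locus carries no Cre, was at 1632 and 1815 in pre-B libraries, at 306 and 313 in control pro-B and at 465 and 726 in c-Kit-high controls. It was higher in pre-B cells by 2.47 ± 0.19 against pro-B (adjusted p = 2.92e-07) and by 1.57 ± 0.19 against c-Kit-high cells (adjusted p = 3.08e-05). Both chains were thus higher in each pre-B library than in any other library of the series.

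Blnk was highest in c-Kit-high controls, at 333 and 391 RPKM, followed by pre-B cells at 241 and 251 and control pro-B at 143 and 146. No 2 of these groups overlapped. Pre-B cells were above pro-B by 0.76 ± 0.13 (adjusted p = 0.000201) and below c-Kit-high cells by -0.55 ± 0.13 (adjusted p = 0.00355). Pik3ap1 was at 319 and 336 in pre-B libraries, against 94.6 and 85.1 in pro-B (1.86 ± 0.18, adjusted p = 1.27e-06) and 193 and 224 in c-Kit-high cells (0.65 ± 0.18, adjusted p = 0.00806). The latter call was lost without c-Kit-high control replicate 1 (0.55, adjusted p = 0.0594) and without pre-B replicate 2 (0.61, adjusted p = 0.0507), over a range of 0.00117 to 0.0594. Cd22 was at 69.6 and 78.9 in pre-B libraries and rose by 2.53 ± 0.19 against pro-B (adjusted p = 1.62e-07) and by 1.97 ± 0.19 against c-Kit-high cells (adjusted p = 3.19e-06).

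Pik3cd and Btk were not called between these stages. Pik3cd was at 161 and 169 RPKM in pre-B libraries, 157 and 159 in pro-B and 173 and 152 in c-Kit-high controls, with a log2 difference of 0.06 ± 0.10 against pro-B (adjusted p = 0.607). Under quantile normalization that difference was 0.30 and was called (adjusted p = 0.0264). Btk was at 54.5 and 39.9 in pre-B libraries, at 47.1 and 42.1 in pro-B and at 36.9 and 55.0 in c-Kit-high controls, where the groups overlapped. Plcg2 was lower in pre-B than in pro-B cells by -0.29 ± 0.09 (adjusted p = 0.0149), a call lost in 5 of 13 alternatives (adjusted p 0.00698 to 0.622), among them without pro-B control replicate 1 (-0.24) or pre-B replicate 1 (-0.25).

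Between the control groups of pro-B cells the members also differed. In c-Kit-high against pro-B controls 6 of 9 were called (background 50.8%), with Cd79b, Syk, Blnk, Pik3ap1 and Cd22 higher and Plcg2 lower. The c-Kit label and the series of library numbers differ together between these controls and cannot be told apart. The c-Kit-high controls also held RNA of other cell types. Granulocyte markers summed to 96.9 and 606.5 RPKM there and to at most 0.28 in pro-B controls. The 4 NK-cell markers summed to 7.66 and 10.2 against 0.26 and 0.41. Only 1 of these 4 averaged 1 RPKM or more in the c-Kit-high controls, and of the 2 tested 1 was called higher. The part of this RNA in the calls was not tested. Cd22 was called at 0.56 ± 0.19 (adjusted p = 0.025) and fell to 0.24 (adjusted p = 0.275) without c-Kit-high control replicate 2, the library of 2.3 M implied reads, with adjusted p from 0.00168 to 0.275 over its alternatives. It was also lost without pro-B control replicate 1 (0.58) or 2 (0.54). The call of Plcg2 (-0.40, adjusted p = 0.00345) was lost under quantile normalization (-0.17, adjusted p = 0.142), over a range of 0.00187 to 0.142. Between Rag2-null and pro-B controls the Rag2 genotype, the series of library numbers and the implied depth differ together and cannot be told apart. The implied depth was 29.9 and 26.9 M reads in Rag2-null controls and 11.5 and 10.3 M in pro-B controls. In the Rag2-null controls 5 of 9 members were called against the pro-B controls (background 31.6%). Cd79a was higher there, at 526 and 471 RPKM against 242 and 273 (0.95 ± 0.16, adjusted p = 0.00101), and Cd79b at 691 and 668 against 306 and 313 (1.13 ± 0.19, adjusted p = 0.00113). Btk was lower, at 20.0 and 19.5 against 47.1 and 42.1 (-1.13 ± 0.21, adjusted p = 0.0018), which put the Rag2-null cells in the upper range of the pre-pro-B libraries (8.71 to 21.1). The calls of Blnk (0.41, adjusted p = 0.0317) and Cd22 (-0.58, adjusted p = 0.0315) were each lost in 7 of 13 alternatives, with adjusted p of up to 0.445 and 0.183. For Blnk these included leaving out either pro-B control (0.39 and 0.43) or Rag2-null control replicate 1 (0.29), and for Cd22 leaving out any of the 4 control libraries (-0.62 to -0.55).

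The order of group means shows where neighbouring groups did not separate. For Cd79a the pre-B group came first and the pre-pro-B groups last, and 5 of 10 neighbouring pairs had libraries that overlapped, among them the 2 Rag2-null groups and the 2 c-Kit-high groups. Cd79b had 5 such pairs, Syk 7, Blnk 4, Btk 9, Pik3cd 8, Pik3ap1 6, Plcg2 7 and Cd22 4. The groups were ordered by the same means, and these counts have no share over all genes beside them. They describe the libraries only and are no result about the members. Control and deleted pro-B libraries of Cd79a did not overlap, for instance, although limma gave no call (adjusted p = 0.435). For Cd22 the deleted c-Kit-high (146 RPKM) and pro-B (97.1 RPKM) groups headed the order, above pre-B cells, and for Pik3cd the deleted pro-B group (60.1 RPKM) stood last of 11.

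The rest of the pathway was read from 7 lists with 86 matched genes besides the members. Of 82 tested, 16 rose and 16 fell on deletion of Ikzf1 in pro-B cells. In c-Kit-high cells 12 rose and 7 fell, and in Rag2-null cells 17 rose and 11 fell. Their median log2 differences were 0.05, -0.02 and 0.13. These counts stand beside backgrounds of 23.4%, 17.2% and 22.3% of all genes called in either direction, and medians over all genes of 0.03, 0.03 and 0.06.

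Among genes that act beside CD22, the inhibitory receptor gene Cd72 rose in pro-B cells from a mean of 13.8 to 102 RPKM (2.78, adjusted p = 5.58e-06) and Ptpn6, the phosphatase SHP-1 that such receptors recruit, from 84.6 to 338 (1.98, adjusted p = 6.88e-07). Of the 13 inhibitory receptors and phosphatases 3 rose and 1 fell in pro-B cells, where 13.5% of all genes were called higher and 9.89% lower. In c-Kit-high cells 3 rose (11.6% of all genes higher and 5.6% lower). In Rag2-null cells 2 rose and 4 fell (15.5% higher and 6.84% lower), and Cd72 fell there by 0.75 (adjusted p = 0.0379). The Src-family kinase gene Lyn, whose product phosphorylates both CD79 tails and CD22, rose by 1.16 in pro-B cells (adjusted p = 2.94e-05) and by 0.46 in c-Kit-high cells (adjusted p = 0.023). Blk, another Src-family kinase of B cells, fell in all 3 settings, with log2 differences of -2.08 (pro-B), -2.74 (c-Kit-high) and -3.51 (Rag2-null). With the hairpins in pre-pro-B cells Cd72 went the other way and was lower (-1.10, adjusted p = 2.17e-05), while Lyn was again higher (0.62, adjusted p = 0.000796).

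Relatives of the members did not all move with them. Lcp2, which encodes the T-lineage counterpart of BLNK, fell with Blnk in pro-B cells, from a mean of 10.3 to 0.393 RPKM (-3.02, adjusted p = 1.14e-06), and also in c-Kit-high and Rag2-null cells. Plcg1, the relative of Plcg2, fell by 1.69 in pro-B cells (adjusted p = 9.25e-07), whereas Plcg2 was not called. Zap70, the relative of Syk, rose by 1.82 in pro-B cells (adjusted p = 0.000181). Of the 13 tested relatives 2 rose and 5 fell in pro-B cells, where 13.5% of all genes were called higher and 9.89% lower. Among PI3-kinase regulators and effectors 2 rose and 3 fell of 15 in pro-B cells, beside the same shares over all genes. Foxo1, a transcription factor that this pathway restrains, was lower (-1.88, adjusted p = 3.02e-06), and so was the regulatory subunit gene Pik3r5 (-2.37, adjusted p = 2.78e-05). With the hairpins in pre-pro-B cells 4 of these genes went the other way. Zap70 was lower (-0.75, adjusted p = 0.0109), and Lcp2 (0.44, adjusted p = 0.0247), Foxo1 (0.75, adjusted p = 4.7e-05) and Pik3r5 (0.37, adjusted p = 0.0353) were higher.

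Among the downstream branches, in pro-B cells 3 of 13 genes of the calcium, PKC and NF-kB branch rose and 2 fell, and 4 of 14 genes of the Ras, Rac and ERK branch rose and 0 fell, where 13.5% of all genes were called higher and 9.89% lower. Malt1, a protease of the NF-kB branch, rose by 1.33 in pro-B cells (adjusted p = 9.31e-05) and Rasgrp3, a Ras activator, by 1.98 (adjusted p = 4.33e-05). The same Ras branch had 2 higher and 0 lower in c-Kit-high cells and 4 higher and 0 lower in Rag2-null cells, where calls over all genes also leaned higher (15.5% against 6.84%).

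The surrogate light chain went its own way. Igll1 was at a mean of 1383 RPKM in control and 1425 in deleted pro-B libraries. Of the 4 matched receptor genes Vpreb1 and Vpreb2 fell, by 0.54 (adjusted p = 0.0462) and 0.68 (adjusted p = 0.0189), where 9.89% of all genes were called lower. In pre-B cells Igll1, Vpreb1 and Vpreb2 were at means of 20.5, 14.2 and 1.14 RPKM, lower than in pro-B cells by -6.01, -5.79 and -7.01 on the log2 scale. Vpreb3, the other matched gene of the list, was higher in pre-B than in pro-B cells by 1.30 (adjusted p = 8.64e-05). With the hairpins in pre-pro-B cells all 3 tested genes of that list rose. Igll1 was at means of 0.564 and 0.650 with the control constructs, 22.3 with Ik4056 and 3.40 with Ik2709 (2.61 ± 0.17 over both hairpins, adjusted p = 1.65e-08). It thus rose with Cd79b, its partner in the receptor, while Cd79a stayed near 0. The rise was not alike for the 2 hairpins. All 3 tested genes of the list were called higher with Ik4056 than with Ik2709 (median log2 difference 2.14), where 3.33% of all genes were called in either direction. Ikzf1 itself was at median ratios to the controls of 0.326 with Ik4056 and 0.364 with Ik2709. In the fit without the block, 24 of the 76 other pathway genes tested in the knock-down rose and 10 fell, where 19.4% of all genes were called (13.4% higher and the rest lower).

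In pre-B against pro-B cells 52 of 82 other pathway genes were higher and 16 lower, where 68.8% of all genes were called (31.9% higher and 36.9% lower). Against c-Kit-high cells 33 were higher and 20 lower, where 49% of all genes were called (19.2% higher and 29.8% lower). The part of the granulocyte RNA of the pre-B libraries in these counts was not tested. Blk was at a mean of 204 RPKM in pre-B against 20.4 in pro-B libraries, and Siglecg, a relative of Cd22, at 273 against 19.8.

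Over the 11 group means of log2(RPKM + 1), the genes most like each member were named from 9968 genes that reached 5 RPKM in a group. These points share libraries and the wide gap between pre-pro-B and later cells, so the values describe likeness of profile only. Cd79a was closest to Vpreb3 (Pearson r of 0.995) and Blnk to Pkp3 (0.997). Cd79b was closest to B3gnt8 (0.996), Syk to Apobec1 (0.985) and Btk to Lsm14a (0.989). Pik3ap1 was closest to Gstm1 (0.988) and Cd22 to Pxk (0.989), while Pik3cd and Plcg2 had no gene above 0.966, their closest being Ube2j1 (0.965) and Tle1 (0.966).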

How the data were processed

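The authors deposited 1 table of RPKM per library, with the gene models of 21025 transcripts. The submitters' processing notes name TopHat 1.4.1, HTSeq 0.5.3, DESeq 1.8.3 and the mm9 build, and their roles are not given in the sources used here. Per the labels, polyA RNA was selected and sequenced strand-specifically from 1 end. RPKM values were transformed to log2(RPKM + 1), so differences of low genes are understated, and genes with at least 1 RPKM in 2 libraries were fitted with limma 3.58.1 (R 4.3.3; intensity trend, robust moderation, two-sided tests). P-values were adjusted by Benjamini-Hochberg over all genes tested, with calls at an adjusted p under 0.05. Separate fits held the 14 pro-B and pre-B libraries, the 16 pre-pro-B libraries, or all 30. The code was tested on simulated data.

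Same-numbered pre-pro-B libraries form runs of consecutive library numbers. Their deviations correlated at 0.52 or more in all 24 same-run pairs (median 0.77, against -0.24 between runs), so the runs were taken to pair the libraries. The main fit did not use this pairing, and the fit with the run as a block is given as an alternative.

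Members and gene lists were chosen with earlier results of these data known. Pathway genes were named by rank, up to 3 per list and direction among called genes with a mean of at least 3 RPKM. Alternatives covered the pseudocount (0.1 and 0.25), the filter (none, or 3 RPKM), the scaling, the moderation, the samples fitted, the replicate block and each library left out. Protein sequences were not used here. Some genes of the lists are not reported here.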

Additional observations from a re-analysis of the deposited data

Results flagged for a closer look

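Effects of Ikzf1 deletion on 4 members differed between pro-B settings by a test of the difference itself. Between Rag2-null and pro-B cells the log2 effect differed by 1.55 for Blnk, by -2.39 for Cd22, by -0.95 for Pik3ap1 and by 0.52 for Pik3cd. Between c-Kit-high and pro-B cells it differed by -1.05 for Pik3ap1. The calls for Blnk and Cd22 were kept in each of the 17 alternatives, and those for Pik3ap1 and Pik3cd were not, as given above. The Rag2-null setting also differs from the pro-B setting in its series of library numbers and implied depth, which cannot be told apart from the Rag2 genotype.

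Blnk in 1 library with hairpin Ik2709 lay apart from the other 3, at 0.305 RPKM against 0.0898 to 0.126, a gap of 0.830 of the group's range. It was the only flag among 36 groups of 4 libraries, where chance flags about 1 in 20, and it rests on 20 or fewer implied reads.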

How the results depend on the processing

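Among 108 results of single members, 49 were called, and 38 of these were called in every alternative run. Over 1659 alternative values no called result reversed, 63 calls were lost and 23 gained. Quantile normalization raised the members called for deletion in c-Kit-high cells from 3 to 5. Fitting only the compared groups left 1 of 2 for deletion in Rag2-null cells, and fitting all 30 libraries left 2 of 4 for the difference between Rag2-null and pro-B effects. With each library left out in turn, that difference gave 2 to 4 members, the difference between c-Kit-high and pro-B effects 0 to 2 (1 with all libraries), and Rag2-null against pro-B controls 3 to 5 (5 with all). The run as a replicate block gave 5 instead of 2 for the knock-down and 2 instead of 0 between hairpins. Quantile normalization moved the median of all genes by -0.13 for the Rag2-null deletion and the share of higher calls among all genes there from 69.4% to 57.9%, or to 50.6% under median-ratio scaling. For the pro-B deletion the share went from 57.7% to 48.7% under median-ratio scaling (1314 higher and 1386 lower), so the majority direction over all genes turned. It moved likewise for c-Kit-high deletion (67.4% to 51.7% and 57.3%), the knock-down (68.9% to 52.5% and 57.0%), the hairpins (78.8% to 62.6% under 1 scaling), pre-B against c-Kit-high cells (39.1% to 50.4% and 52.8%) and Rag2-null against pro-B controls (34.5% to 45.0% and 53.9%). With 2 libraries a group, 1 library decides many calls, and where an arm was left with 1 library it was assumed to vary like the other groups. Cd79a, Blnk and Cd22 in pre-pro-B cells rest on 20 or fewer implied reads per library, which limits their precision, and pre-B libraries held granulocyte RNA throughout.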
